A study of Mus musculus with 28 samples.

Results

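Endothelial genes of the mouse brain are described here through 10 genes that are widely used to mark brain endothelial cells and the blood-brain barrier, *Cldn5*, *Flt1*, *Pecam1*, *Ly6c1*, *Slco1a4*, *Abcb1a*, *Itm2a*, *Tek*, *Kdr* and *Mfsd2a*. They were chosen by symbol, matched to the Ensembl identifiers of the count tables, and make up 10 of the 29878 genes listed. All 10 passed the filter on low counts and were among the 14979 genes tested, and each had counts in all 28 libraries. They varied little between the 4 brain regions: 4 of 10 differed over the regions, against 70.4% of all genes tested. Between pairs of regions 0 to 4 of the 10 passed, against 29.0% to 56.1% of all genes. Among them *Flt1*, *Pecam1* and *Ly6c1* were higher in dorsal than in ventral striatum (3 of 10, against 29.0%), calls that were lost when libraries were scaled by total counts alone. That scaling also moved the median of all genes from −0.01 to −0.17 on the log2 scale. None of the 10 passed the edgeR test between genotypes.

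Endothelial cells line the vessels of the brain. They are sealed to each other by tight junctions, take up nutrients through transporters, return many drugs to the blood through efflux pumps, and move little material across the cell in vesicles. Vascular endothelial growth factor (VEGF) and the angiopoietins reach them through receptors of the tyrosine kinase type, and Wnt signals from the surrounding tissue maintain the barrier program. In a few sites, among them part of the hypothalamus next to the third ventricle, vessels are fenestrated and leaky.

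RNA was sequenced from dorsal striatum, ventral striatum, motor cortex and hypothalamus of adult male mice aged 2 to 3 months, backcrossed to C57Bl/6, that carried both, 1 or no working copies of *Hdc*, the gene of the enzyme that makes histamine (wild-type [WT], Het and *Hdc*-KO). Dorsal striatum had 2 WT, 3 Het and 2 KO libraries, ventral striatum and hypothalamus 3, 3 and 2 each, and motor cortex 1, 2 and 2. The deletion is constitutive, no sort or capture of vessels was made, and the labels do not say which libraries of different regions came from 1 mouse. Totals ran from 3536802 to 5150280 counts per library (median 4392302), which left *Cldn5* with 8 to 26 counts and *Flt1* with 184 to 401. In bulk tissue, fewer endothelial cells and less RNA per cell cannot be told apart.

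The dissections were checked against marker lists of the neurons each region holds. The summed level of the spiny neuron list, in CPM (counts scaled to library size), was 7423 to 10650 in dorsal striatum and at most 235.7 in hypothalamus and 206.7 in motor cortex. The cortical neuron list lay at 2007 to 2188 CPM in motor cortex and at most 545.0 elsewhere, and the hypothalamic list at 189.8 to 341.8 CPM in hypothalamus and at most 13.9 elsewhere. Outside hypothalamus, *Hdc* counts, taken over the whole gene, were higher in libraries labelled KO than in those labelled WT. Libraries labelled WT had 0 to 6 counts in both striatal regions and motor cortex, and those labelled KO had 29 to 51. With the Het libraries included, the median was 21 counts in dorsal striatum, 21.5 in ventral striatum and 21 in motor cortex, between those ranges. In hypothalamus the libraries labelled KO had 54 and 66 counts and those labelled WT 79 to 111. Counts over the whole gene do not separate deleted from remaining exons, and the cause of the higher counts under the KO label was not tested. The genotypes, and each comparison between them, rest on the labels alone.

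The 250 bases before the RefSeq start of 3 members are shown (build GRCm38.p6, read 5′ to 3′ on the gene's strand). *Flt1* and *Ly6c1* were taken because they passed the test in more region comparisons than the other members. *Cldn5* was taken as the main claudin of the brain endothelial tight junction. Capitals mark GGAA, or its reverse complement TTCC, the core that ETS factors bind, a family that includes regulators of endothelial genes.
Cldn5, chr16:18776597-18776846, plus strand: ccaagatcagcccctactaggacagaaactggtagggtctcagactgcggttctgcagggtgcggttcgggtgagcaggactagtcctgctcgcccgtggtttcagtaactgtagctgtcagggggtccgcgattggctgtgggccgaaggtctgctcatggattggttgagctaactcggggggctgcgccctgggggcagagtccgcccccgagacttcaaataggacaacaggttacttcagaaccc
Flt1, chr5:147726012-147726261, minus strand: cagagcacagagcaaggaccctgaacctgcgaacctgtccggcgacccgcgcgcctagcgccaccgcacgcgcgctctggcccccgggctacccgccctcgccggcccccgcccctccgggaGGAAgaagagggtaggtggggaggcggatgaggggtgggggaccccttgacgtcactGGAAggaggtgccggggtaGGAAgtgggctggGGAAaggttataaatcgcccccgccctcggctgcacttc
Ly6c1, chr15:75048838-75049087, minus strand: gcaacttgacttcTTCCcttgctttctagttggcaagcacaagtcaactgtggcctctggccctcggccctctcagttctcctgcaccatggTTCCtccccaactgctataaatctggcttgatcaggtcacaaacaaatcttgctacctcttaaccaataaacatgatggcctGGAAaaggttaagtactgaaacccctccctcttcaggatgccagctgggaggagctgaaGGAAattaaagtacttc

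The *Flt1* and *Ly6c1* windows held 4 such cores each and the *Cldn5* window 0. Of the 9 members with a promoter in the RefSeq table, 8 held at least 1 core, which is common, since 93.37% of 27025 promoters of the same length did. Promoters of 1 chromosome, which holds no member, were left out of that count. On both strands, CGGAAG, which contains GGAA, was found in 0 of 9 members (13.76% of promoters), the SOX motif ATTGTT in 2 (9.647%), the LEF/TCF motif CTTTGA in 2 (14.05%), the FOX motif TGTTTA in 3 (12.03%) and the E-box CANNTG in 7 (66.04%). These are matches of letters and say nothing of binding.

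Per kilobase of exon, on the RPKM scale (CPM divided by exon length in kilobases, mean over 28 libraries), *Itm2a*, which encodes a small transmembrane protein, had the highest level of the members at 12.7 ± 1.16 (SD). *Ly6c1*, which encodes a surface protein held by a lipid anchor, followed at 6.40 ± 1.17 RPKM. The order continued with *Flt1* at 5.01 RPKM, *Abcb1a* at 4.79, *Mfsd2a* at 4.44, *Pecam1* at 3.34, *Slco1a4* at 3.00, *Cldn5* at 2.53, *Tek* at 2.50 and *Kdr* at 1.26. *Itm2a* stood above *Ly6c1* in 28 of 28 libraries and *Tek* above *Kdr* in 28 of 28. *Cldn5* and *Tek* did not separate, with *Cldn5* higher in 12 of 28, and *Flt1* lay above *Abcb1a* in 21 and *Abcb1a* above *Mfsd2a* in 16 of 28.

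**Figure D1:**
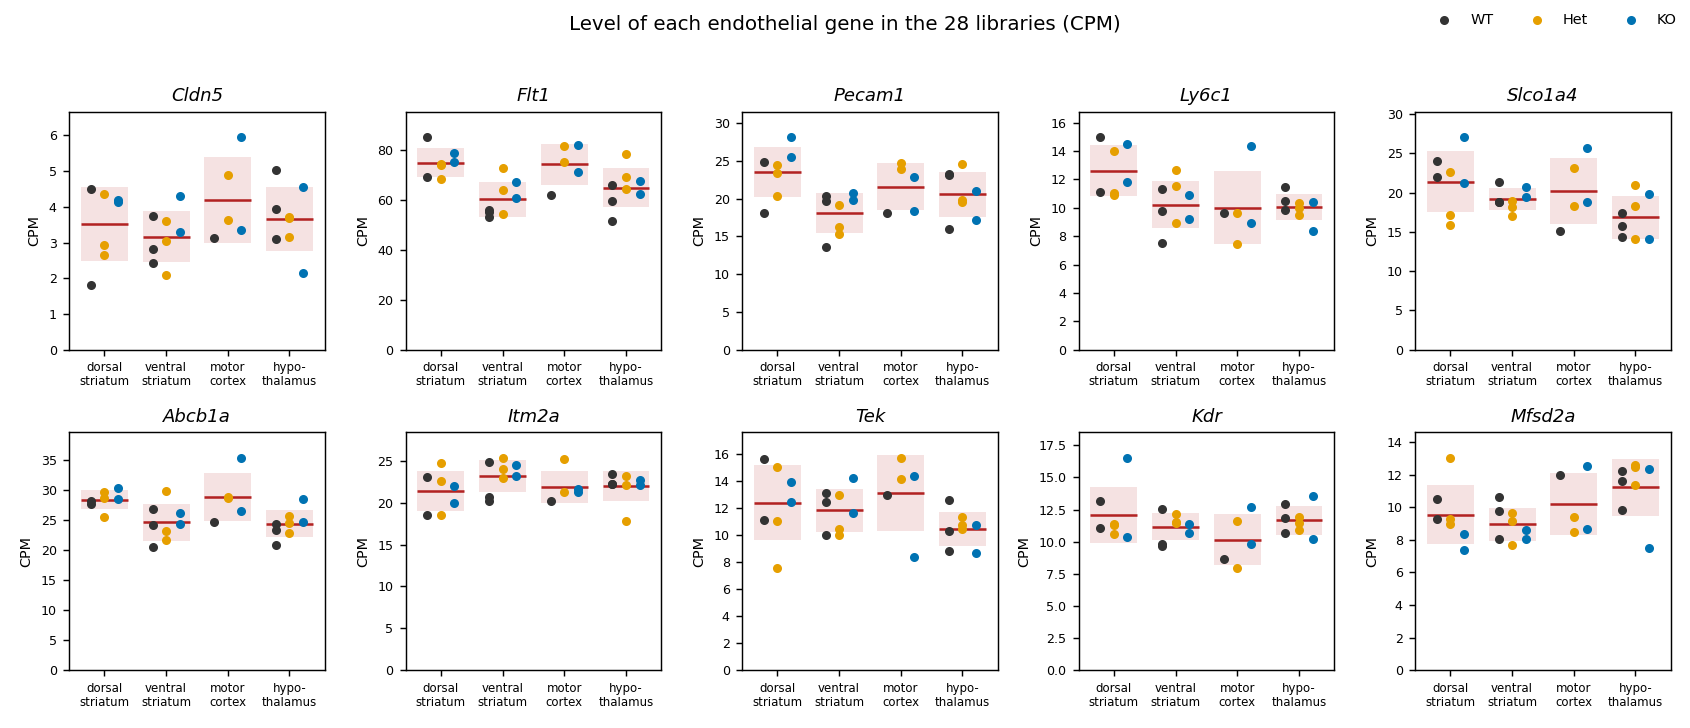
Level of each of the 10 genes in CPM (y axis, from 0) in every library, by region (x axis), with WT, Het and KO libraries in black, orange and blue; red lines are region means and shaded bands 1 SD. The 4 regions overlap for each gene, as for *Flt1*, which runs from 68.1 to 84.8 CPM in dorsal and 53.1 to 72.6 in ventral striatum.

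Among the junction and adhesion genes, *Cldn5*, the main claudin of the brain endothelial tight junction (16:18776847-18778262 of GRCm38, plus strand), was the least precisely measured. It ranged from 1.81 to 4.50 CPM in dorsal striatum (median 4.14) and from 2.10 to 4.30 in ventral striatum (median 3.17). In motor cortex *Cldn5* was 3.12 CPM in the WT library, 3.62 and 4.89 in the Het libraries and 3.36 and 5.95 in the KO libraries, and in hypothalamus it ran from 2.15 to 5.04 (median 3.71). All 4 regions overlapped, and the coefficient of variation over the 28 libraries, 26.8%, was close to the 25.3% that counting alone gives. *Cldn5* did not pass the test over regions (edgeR adjusted p = 0.736), and the 95% interval of dorsal minus ventral striatum ran from −0.36 to 0.55 on the log2 scale.

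*Pecam1*, which encodes the adhesion molecule CD31 of endothelial cell contacts (11:106654217-106750628, minus strand), ranged from 18.1 to 28.1 CPM in dorsal striatum (median 24.5) and from 13.6 to 20.8 in ventral striatum (median 19.4). In motor cortex it was 18.0 CPM in the WT library, 23.9 and 24.7 in the Het and 22.9 and 18.4 in the KO libraries, and in hypothalamus *Pecam1* ran from 15.9 to 24.6 (median 20.4). Most dorsal libraries lay above all ventral ones, though the ranges overlapped. *Pecam1* was 0.36 higher in dorsal than ventral striatum on the log2 scale (SE 0.11, edgeR adjusted p = 0.00767). *Ly6c1* (15:75044018-75048830, minus strand) ranged from 10.9 to 15.0 CPM in dorsal striatum (median 11.8), from 7.498 to 12.7 in ventral striatum (median 10.3) and from 8.38 to 11.5 in hypothalamus (median 10.2). In motor cortex *Ly6c1* was 9.61 CPM in the WT library, 9.66 and 7.46 in the Het and 14.3 and 8.92 in the KO libraries. Dorsal striatum had the highest mean CPM, with overlap against each of the others. *Ly6c2*, the near-identical neighbour of *Ly6c1*, had at most 1 count in any library, though reads shared by both genes may be lost.

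Of the receptors, *Flt1*, VEGF receptor 1, which binds VEGF tightly and signals weakly (5:147561604-147726011, minus strand), had the most counts. It ranged from 68.1 to 84.8 CPM in dorsal striatum (median 74.1), from 53.1 to 72.6 in ventral striatum (median 58.2) and from 51.4 to 78.1 in hypothalamus (median 65.1). In motor cortex *Flt1* was 61.8 CPM in the WT library, 74.8 and 81.3 in the Het and 81.8 and 71.1 in the KO libraries. Only 1 ventral library, Het 6, reached the dorsal range. *Flt1* was 0.31 higher in dorsal than ventral striatum on the log2 scale (SE 0.08, edgeR adjusted p = 0.000583). It was 0.25 lower in ventral striatum than in motor cortex (log2 difference −0.25, SE 0.09, edgeR adjusted p = 0.0162).

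*Kdr*, VEGF receptor 2, the main signalling receptor for VEGF (5:75932827-75978458, minus strand), had its highest mean CPM in dorsal striatum and its highest median in hypothalamus. KO dorsal striatum 8 stood at 16.53 CPM, and the next dorsal library at 13.15. Under the scaling used here *Kdr* passed no test between regions. It ranged from 10.4 to 16.5 CPM in dorsal striatum, 9.70 to 12.6 in ventral striatum, 7.97 to 12.7 in motor cortex and 10.2 to 13.5 in hypothalamus, with medians of 11.3, 11.4, 9.86 and 11.7. The largest *Kdr* difference, 0.31 on the log2 scale between dorsal striatum and motor cortex, did not pass (edgeR adjusted p = 0.0767). *Tek*, which encodes TIE2, the receptor of the angiopoietins (4:94739289-94874976, plus strand), ranged from 7.54 to 15.6 CPM in dorsal striatum, 9.95 to 14.2 in ventral striatum, 8.38 to 15.7 in motor cortex and 8.67 to 12.6 in hypothalamus. Its medians were 12.4, 12.02, 14.2 and 10.6 CPM, with wide overlap. *Tek* differed by 0.34 on the log2 scale between motor cortex and hypothalamus (95% interval 0.03 to 0.65), which did not pass after adjustment (edgeR adjusted p = 0.0667).

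The transporters did not share one order of regions. *Slco1a4*, an organic anion transporter of the vessel wall (6:141805440-141856199, minus strand), ranged from 15.9 to 27.0 CPM in dorsal striatum (median 21.99), from 17.0 to 21.3 in ventral striatum (median 18.9) and from 14.1 to 20.9 in hypothalamus (median 16.5). In motor cortex *Slco1a4* was 15.1 CPM in the WT library, 18.4 and 23.2 in the Het and 18.8 and 25.7 in the KO libraries. The median dorsal library lay above all hypothalamic ones, and both striatal ranges overlapped. *Abcb1a*, the drug efflux pump P-glycoprotein (5:8660077-8748575, plus strand), ranged from 25.5 to 30.4 CPM in dorsal striatum (median 28.5), from 20.5 to 29.9 in ventral striatum (median 24.3) and from 20.9 to 28.6 in hypothalamus (median 24.5). In motor cortex *Abcb1a* was 24.8 CPM in the WT library, 28.7 and 28.8 in the Het and 35.4 and 26.5 in the KO libraries. Its close copy *Abcb1b* had 2 to 15 counts per library, and reads shared by both copies may be lost or split. A predicted transcript on the opposite strand overlaps 553 exon bases of *Abcb1a* (10.1%), which was not analysed here.

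*Mfsd2a*, a lipid transporter that carries docosahexaenoic acid into the brain and holds back vesicle transport across the endothelium (4:122946850-122961188, minus strand), had its highest mean in hypothalamus. It ranged there from 7.52 to 12.6 CPM (median 11.9), against 7.66 to 10.7 in ventral striatum (median 8.89) and 7.37 to 13.05 in dorsal striatum (median 9.29). In motor cortex *Mfsd2a* was 12.02 CPM in the WT library, 9.41 and 8.49 in the Het and 12.5 and 8.65 in the KO libraries. All hypothalamic libraries except KO 8 and WT 3 lay above the highest ventral library. *Mfsd2a* was lower in ventral striatum than in hypothalamus (log2 difference −0.32, SE 0.13, edgeR adjusted p = 0.034). *Itm2a* (X:107397099-107403376, minus strand) was the steadiest member, at 21.4 ± 2.38 CPM in dorsal striatum, 23.2 ± 1.91 in ventral striatum, 21.9 ± 1.92 in motor cortex and 21.99 ± 1.78 in hypothalamus (SD, n = 7, 8, 5 and 8). Its coefficient of variation over 28 libraries, 9.12%, was below the 10.1% expected of counting alone.

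Tested over all 4 regions at once, with genotypes weighted equally, *Flt1* (edgeR adjusted p = 0.000741), *Slco1a4* (0.0251), *Ly6c1* (0.0258) and *Pecam1* (0.0269) differed, 4 of 10 members against 70.4% of all genes tested. *Abcb1a* (0.0530), *Mfsd2a* (0.0866), *Tek* (0.162), *Kdr* (0.224), *Itm2a* (0.534) and *Cldn5* (0.736) did not pass. Dorsal against ventral striatum, 3 of 10 members differed (*Flt1*, *Pecam1* and *Ly6c1*), against 29.0% of all genes, and all 3 were higher. *Ly6c1* differed there by 0.33 on the log2 scale (SE 0.13, edgeR adjusted p = 0.0438), and all 3 stayed positive but missed the threshold when libraries were scaled by total counts alone. The median of the members was 0.15 and that of all genes −0.01 on the log2 scale. With each library left out in turn, *Flt1* kept its call in 15 of 15 fits, *Pecam1* in 14 (0.28 without WT dorsal striatum 1) and *Ly6c1* in 8, where the lowest value was 0.25 without WT dorsal striatum 2.

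Dorsal striatum against hypothalamus, 4 of 10 members differed, against 56.1% of all genes, and all 4 were higher, but with scaling by total counts alone all 4 turned to −0.15 for *Flt1*, −0.16 for *Abcb1a* and just below 0 for *Slco1a4* and *Ly6c1*. With that scaling 0 members were called higher and 3 lower, *Itm2a* (−0.43), *Kdr* (−0.30) and *Mfsd2a* (−0.61), and the median of all genes moved from −0.04 to −0.41. Under the scaling used here, *Slco1a4* differed by 0.36 (SE 0.11, edgeR adjusted p = 0.0033), *Ly6c1* by 0.36 (SE 0.13, adjusted p = 0.0112), *Flt1* by 0.22 (SE 0.08, adjusted p = 0.0117) and *Abcb1a* by 0.21 (SE 0.09, adjusted p = 0.0432) on the log2 scale. Relative to the typical gene, the members' median was 0.21 against −0.04, and with total counts alone −0.16 against −0.41. The *Slco1a4* call held in 15 of 15 fits that left out 1 library, *Flt1* in 14 (0.17 without WT dorsal striatum 1), *Ly6c1* in 12 (lowest 0.27 without WT dorsal striatum 2) and *Abcb1a* in 4 (lowest 0.17 without KO hypothalamus 7). Dorsal striatum against motor cortex, 1 of 10 differed, *Ly6c1*, higher by 0.36 (SE 0.16, edgeR adjusted p = 0.0426), against 43.4% of all genes. That call was lost without Het dorsal striatum 5 (0.32), Het motor cortex 6 (0.31), KO dorsal striatum 7 (0.31), KO motor cortex 8 (0.27) or WT dorsal striatum 2 (0.28). Motor cortex had 1 WT library, which carried the whole WT weight and stayed in each of these fits.

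Ventral striatum against motor cortex, 1 of 10 members differed (*Flt1*, lower), against 43.7% of all genes. The *Flt1* call was lost without Het motor cortex 6 (−0.23) or KO motor cortex 7 (−0.21). The single WT motor cortex library, which stayed in each fit, had 61.8 CPM of *Flt1*, against 71.1 to 81.8 in the others of that region. Ventral striatum against hypothalamus, 1 of 10 differed (*Mfsd2a*, lower), against 43.6%. The *Mfsd2a* difference kept its call in 9 of 16 fits that left out 1 library, and ran from −0.42 without KO hypothalamus 8 to −0.18 without KO hypothalamus 7. Motor cortex against hypothalamus, 0 of 10 passed the edgeR likelihood ratio test against 48.2% of genes, with 1 at an unadjusted p under 0.05 (*Tek*) and 0 by the quasi-likelihood test and by DESeq2.

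**Figure D2:**
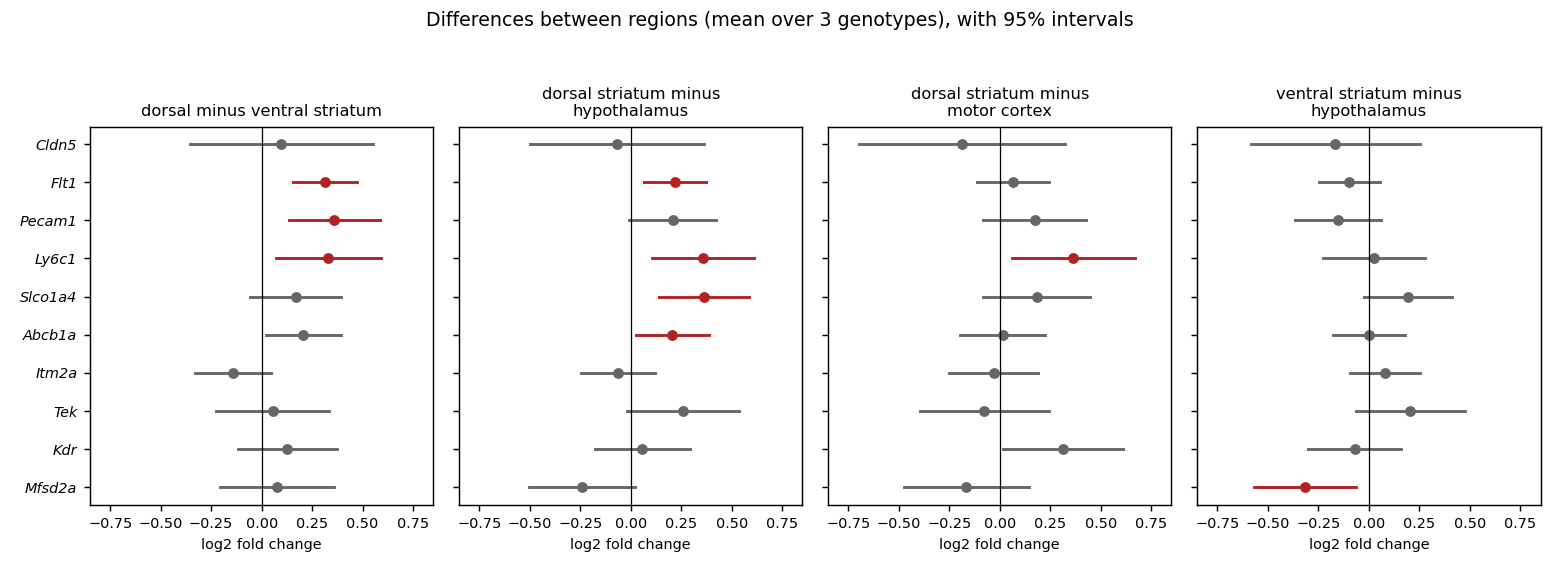
Log2 fold change (x axis) of each gene (y axis) in 4 region comparisons, each a mean over the 3 genotypes; bars are 95% intervals and red marks an adjusted p under 0.05. *Flt1*, *Pecam1* and *Ly6c1* lie above 0 for dorsal minus ventral striatum. The 4 red genes for dorsal striatum minus hypothalamus fall below 0 when libraries are scaled by total counts alone. That scaling also moves the median of all genes in that comparison, from −0.04 to −0.41.

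The span of the members between the highest and the lowest region mean was small beside most genes. It ran from 0.12 for *Itm2a* to 0.37 for *Pecam1* on the log2 CPM scale, with a median of 0.31 over the 10, against 0.61 over all genes tested and 0.54 over the 8656 genes within the members' range of mean CPM. Region held a median 26.5% of the members' variance and 49.2% of that of all genes. Median spans of the further endothelial lists were 0.29 for junction genes, 0.46 for barrier transporters, 0.43 for surface and signalling genes and 0.42 for barrier transcription and Wnt genes. Those of parenchymal cells were wider, at 0.90 for microglia, 0.87 for astrocytes and 1.05 for oligodendrocytes.

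**Figure D3:**
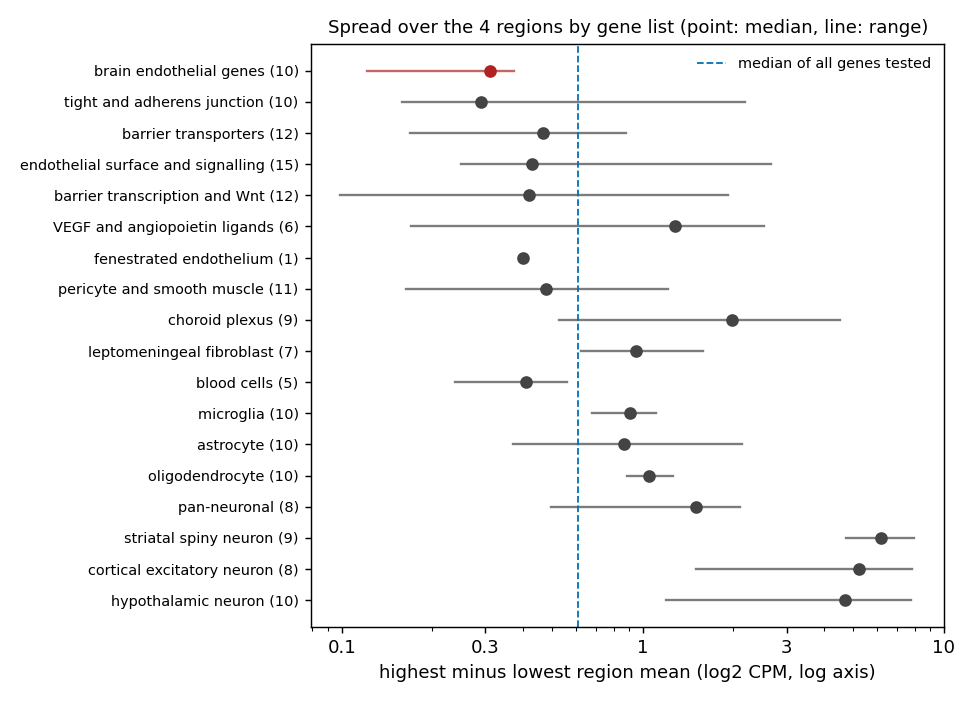
Highest minus lowest region mean in log2 CPM (x axis, log axis) for the genes of each list (y axis, genes tested in brackets); points are list medians, lines run from the smallest to the largest span, and the dashed line is the median of all genes tested. The endothelial genes (red) have a median of 0.31, left of the dashed line at 0.61, and the neuron lists of the regions lie between 4.68 and 6.19.

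Sums of other vessel and blood genes stand beside the regional levels of the members. The pericyte and smooth muscle list (11 genes, 0 of them without counts) summed to 257.6 to 331.0 CPM in dorsal striatum, 206.5 to 264.1 in ventral striatum, 234.9 to 293.4 in motor cortex and 220.7 to 270.4 in hypothalamus. The red blood cell list (5 genes) summed to 34.9 to 48.0, 24.4 to 44.1, 22.1 to 49.2 and 18.8 to 41.5 CPM in the same order. The 10 members summed to 198.1 to 238.5, 176.5 to 206.9, 186.3 to 234.5 and 175.4 to 217.5 CPM. The part of vessel content or residual blood in the differences between regions was not tested.

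Further genes with endothelial functions, from lists chosen by function, held some that differed widely between regions. No vessels were sorted, so the cells behind these differences were not resolved. Of 10 junction genes, 0 were higher and 2 lower in dorsal than ventral striatum, against 29.0% of all genes in either direction, and 2 were higher and 2 lower than in hypothalamus, against 56.1%. *Jam2*, a junctional adhesion molecule, was at 68.2 ± 2.15 CPM in hypothalamus (SD, n = 8) against 38.5 ± 3.77 in dorsal striatum (n = 7), without overlap (log2 difference −0.82, edgeR adjusted p = 5.2e-29). *Cgn*, which encodes the junction plaque protein cingulin, was at 5.55 ± 1.01 CPM in hypothalamus against 0.943 ± 0.580 in dorsal striatum (log2 difference −2.70, edgeR adjusted p = 1.97e-25). *Cdh5*, VE-cadherin of the adherens junction, had region means of 15.7 to 17.8 CPM, and *Ocln*, occludin, of 3.34 to 4.12, and neither passed the test between any pair of regions.

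Of 12 barrier transporters, 2 were higher and 1 lower in dorsal than ventral striatum (29.0% of all genes in either direction), 1 higher and 4 lower than in hypothalamus (56.1%), and 0 higher and 5 lower than in motor cortex (43.4%). *Tfrc*, the transferrin receptor that brings iron into the brain, was at 45.3 ± 6.65 CPM in motor cortex (SD, n = 5) against 27.3 ± 4.04 in dorsal striatum (n = 7), without overlap (log2 difference −0.68, edgeR adjusted p = 3.4e-08). *Slc7a1*, a carrier of cationic amino acids, was at 67.5 ± 3.95 CPM in motor cortex against 46.7 ± 4.56 in dorsal striatum (log2 difference −0.55, edgeR adjusted p = 3.5e-08). *Slco1c1*, the thyroxine transporter, went the other way, at 26.1 ± 3.67 CPM in dorsal striatum against 16.4 ± 2.59 in hypothalamus (log2 difference 0.68, edgeR adjusted p = 7.4e-09). *Slc2a1*, the glucose transporter GLUT1, had region means of 133.1 to 149.9 CPM and passed no region test.

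Of 15 surface and signalling genes, 3 were higher and 1 lower in dorsal than ventral striatum (29.0% of all genes in either direction) and 5 higher and 2 lower than in hypothalamus (56.1%). *Cd34*, a surface sialomucin of endothelium and blood progenitors, stood at 95.6 ± 11.3 CPM in motor cortex (SD, n = 5), where its lowest library had 79.3, and its highest library elsewhere had 30.5. It differed by −2.57 on the log2 scale between dorsal striatum and motor cortex (edgeR adjusted p = 6.4e-61). *Emcn*, the endothelial sialomucin endomucin, had a mean of 10.1 ± 1.83 CPM in dorsal striatum against 6.84 ± 0.773 in hypothalamus (log2 difference 0.57, edgeR adjusted p = 7.4e-05). Of 12 transcription and Wnt genes, 2 were higher and 1 lower in dorsal striatum than in hypothalamus, again against 56.1% of all genes. *Lef1*, the Wnt effector of the barrier program, which neurons also use, was at 31.4 ± 9.46 CPM in hypothalamus and 7.72 ± 1.21 in ventral striatum (log2 difference −1.99, edgeR adjusted p = 1.4e-31).

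The 6 ligands of the members' receptors had a median span over regions of 1.28 on the log2 CPM scale, against 0.31 for the members. *Vegfa*, the ligand of both VEGF receptors, had region means of 31.0 to 35.1 CPM and passed no region test. *Angpt1*, the activating ligand of TIE2, was at 8.14 ± 1.91 CPM in hypothalamus (SD, n = 8) and 1.28 ± 1.05 in dorsal striatum (n = 7), without overlap (log2 difference −2.69, edgeR adjusted p = 8.0e-22). *Angpt2*, its antagonist in most settings, was at 1.15 ± 0.683 CPM in motor cortex (1 to 9 counts) and 2.72 ± 0.908 in hypothalamus (log2 difference −1.36, edgeR adjusted p = 0.00116). *Pgf*, placental growth factor, which binds FLT1 but not KDR, was at 4.06 ± 0.891 CPM in hypothalamus and 1.00 ± 0.665 in dorsal striatum (log2 difference −2.06, edgeR adjusted p = 2.9e-13). *Plvap*, the diaphragm protein of fenestrated vessels, was low throughout, with region means of 2.38 to 2.83 CPM, and passed no region test.

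**Figure D4:**
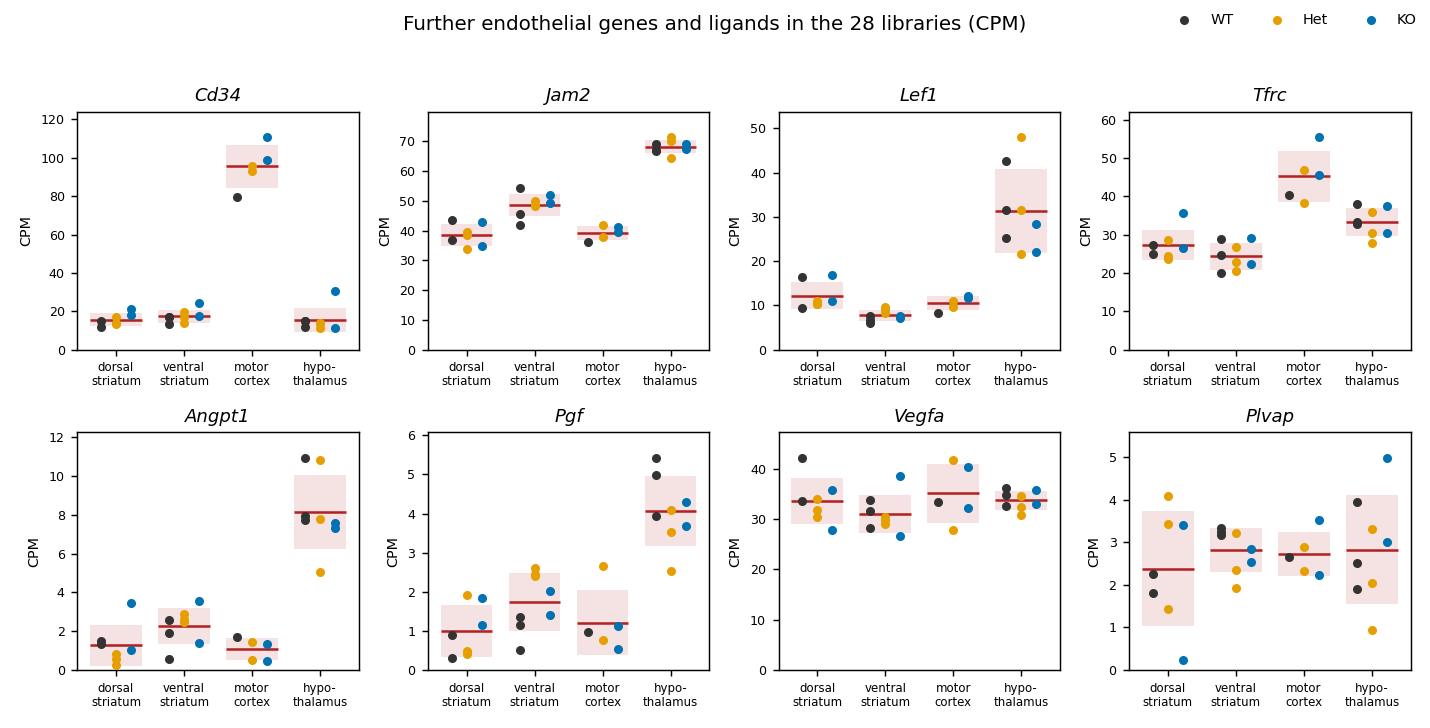
Level in CPM (y axis, from 0) of 8 further endothelial genes and ligands in every library by region (x axis), with WT, Het and KO libraries in black, orange and blue; red lines are region means and shaded bands 1 SD. *Cd34* separates motor cortex, at 79.3 CPM and above, and *Jam2* separates hypothalamus, at 64.5 and above, while *Vegfa* and *Plvap* overlap throughout.

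Whether loss of *Hdc* changed endothelial genes was asked in each region. In dorsal striatum, 0 of 10 members passed the edgeR test between the libraries labelled KO and WT, against 0.387% of all genes, and 0 had an unadjusted p under 0.05. The quasi-likelihood test and DESeq2 also called 0. *Pecam1* was at 28.1 and 25.5 CPM in the KO and 24.9 and 18.1 in the WT libraries. *Cldn5* was at 4.14 and 4.20 CPM in the KO and 4.50 and 1.81 in the WT libraries. *Mfsd2a* was at 7.37 and 8.40 CPM in the KO and 10.49 and 9.29 in the WT libraries. The KO libraries lay above both WT libraries for *Pecam1* and *Abcb1a* and below them for *Mfsd2a*, so 3 of 10 members did not overlap, against 37.1% of genes.

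The fitted KO minus WT values in dorsal striatum were 0.33 for *Pecam1* (95% interval −0.08 to 0.75, edgeR adjusted p = 0.736), 0.47 for *Cldn5* (−0.38 to 1.32, adjusted p = 0.843) and −0.32 for *Mfsd2a* (−0.86 to 0.22, adjusted p = 0.831) on the log2 scale. Without WT dorsal striatum 2, *Cldn5* turned to −0.11, and without WT dorsal striatum 1 it was 1.19. *Flt1* had the narrowest interval, 0.01 (−0.29 to 0.30). The choroid plexus list summed to 2976 CPM in KO dorsal striatum 8 and 10.8 in KO dorsal striatum 7, against 4.80 and 16.1 in the WT libraries, and 0 members passed with that library left out or with the list as a covariate. *Cdh5* had a KO minus WT value of 0.61 in dorsal striatum (SE 0.21, unadjusted p = 0.00323, edgeR adjusted p = 0.218), 0.64 in motor cortex (unadjusted p = 0.0156, adjusted p = 1), 0.23 in hypothalamus and −0.27 in ventral striatum. The test of the difference between dorsal and ventral striatum gave 0.88 (unadjusted p = 0.00216, edgeR adjusted p = 0.490), so no *Cdh5* value passed.

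In ventral striatum 0 of 10 members passed the edgeR test between KO and WT (0.0801% of all genes), in motor cortex 0 (0.0334%) and in hypothalamus 0 (0.167%), and 0 had an unadjusted p under 0.05 in any of them. The KO libraries lay above all WT libraries for 1 member in ventral striatum (*Flt1*; 17.2% of genes did not overlap in either direction), 7 in motor cortex (65.5%) and 1 in hypothalamus (*Abcb1a*, 21.3%), and below them for 0 in each. Motor cortex had 1 WT library, so its comparison takes the spread of WT from the other groups. That library had the lowest summed level of the members in that region, 186.3 CPM against 207.9 to 234.5, and the lowest red blood cell sum, 22.1 CPM against 34.5 to 49.2. The part of residual blood in that library was not tested. *Slco1a4* was at 15.1 CPM in the WT and 18.8 and 25.7 in the KO libraries there, a log2 difference of 0.54 that cannot be set against a spread between WT libraries of motor cortex.

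**Figure D5:**
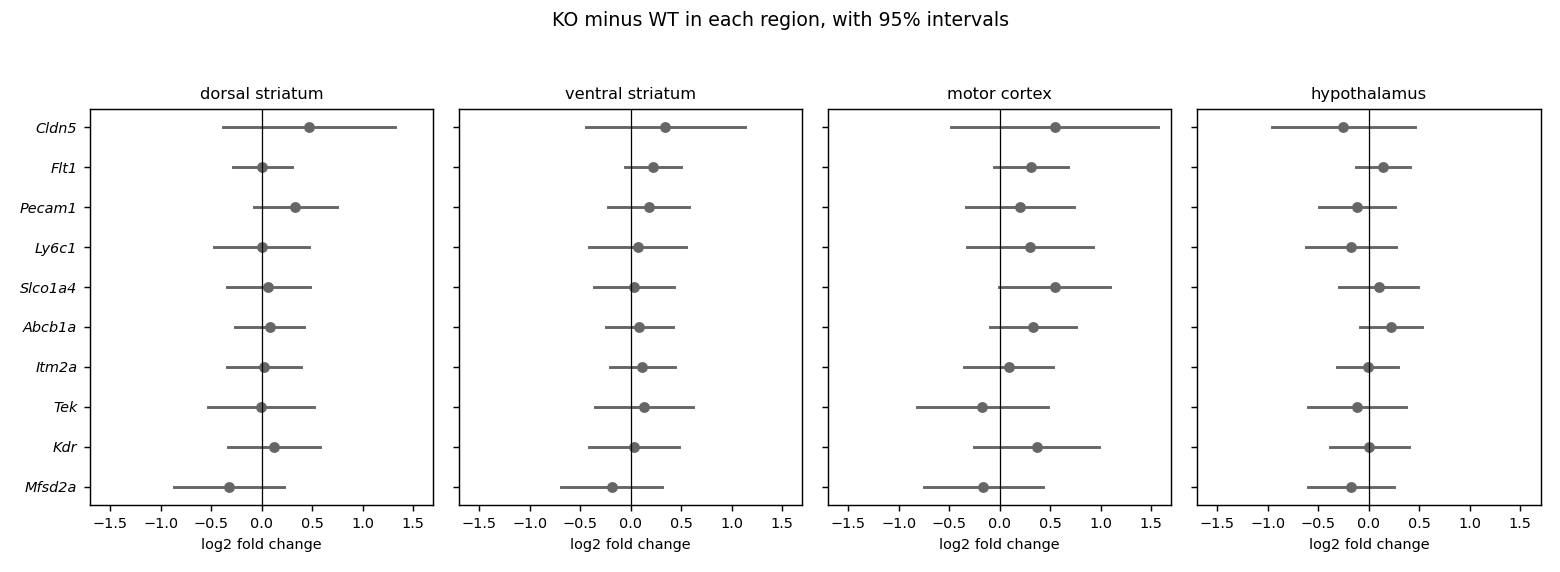
Log2 fold change of KO minus WT (x axis) for each gene (y axis) in the 4 regions; bars are 95% intervals. No gene reaches an adjusted p under 0.05, and the *Flt1* interval in dorsal striatum runs from −0.29 to 0.30.

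Over dorsal striatum, ventral striatum and hypothalamus together, 0 of 10 members passed between KO and WT (0.527% of all genes), with 0 at an unadjusted p under 0.05. That test takes libraries as independent, though libraries of different regions may come from the same mouse. The values ran from −0.23 for *Mfsd2a* (95% interval −0.51 to 0.05) to 0.19 for *Cldn5* (−0.27 to 0.64) on the log2 scale, and *Flt1* was at 0.12 (−0.04 to 0.28). Tests of whether the KO minus WT difference in dorsal striatum departs from that in ventral striatum, motor cortex or hypothalamus called 0 of 10 each (0.00668%, 0.127% and 0.154% of genes). Het against WT, 0 of 10 passed in dorsal striatum (0.0868% of genes), ventral striatum (0.0534%), motor cortex (0.0134%) and hypothalamus (0.0935%). Of these, 1 had an unadjusted p under 0.05, *Flt1* in hypothalamus, at 64.3, 69.1 and 78.1 CPM in the Het and 65.8, 59.4 and 51.4 in the WT libraries (log2 difference 0.26, unadjusted p = 0.0296, edgeR adjusted p = 0.823). KO and Het comparisons of a region share its WT libraries.

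Within regions the members rose and fell together only in part. With each region's mean removed, the 45 pairs of members had Pearson correlations over 28 libraries from −0.39 (*Slco1a4* and *Mfsd2a*) to 0.58 (*Flt1* and *Pecam1*), with a median of 0.10 and 29 above 0. *Flt1* followed the mean of the other 9 most closely (0.67), then *Pecam1* (0.45), *Itm2a* (0.42) and *Tek* (0.41), while *Kdr* (0.03), *Ly6c1* (−0.11) and *Mfsd2a* (−0.44) did not. Libraries share depth and dissection, and *Cldn5* and the other low genes carry mostly counting error, so these are descriptions. Of 10032 genes outside the members with a mean of at least 5 CPM, those most like the members' mean were *Sparcl1* (0.73), *Cast* (0.71), *Adarb2* (0.71), *Aqp4* (0.70), *Jam2* (0.69), *Gpc5* (0.68), *Ace* (0.68) and *Cox5a* (0.67). Those most like *Cldn5* were *Fcho2* (0.71), *Relt* (0.64) and *H3f3b* (0.63). Both lists are the top of a ranking of many genes and were not set against chance.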

How the data were processed

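Single-end 50 base reads of NuGEN Ovation cDNA were processed by the authors. Adapters were trimmed with Trimmomatic 0.32, ribosomal reads were removed with Bowtie2 2.2.3, the rest was aligned to GRCm38 with STAR 2.3.1z8 and sorted with SAMtools 0.1.19, and HTSeq 0.6.1p1 counted unique reads over exons (tools and versions per the submitters' processing notes). The deposited counts are whole reads per Ensembl gene, not normalized. Summary rows and a transgene row were left out; 45.8% to 55.2% of tallied reads per library lay on no gene. Strand of counting is not given in the sources used here, and short reads of amplified cDNA are not independent molecules.

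Gene names were taken from GENCODE M21 (28758 of 29878 identifiers matched). In R 4.3.3 with edgeR 4.0.16, genes above 1 CPM in at least 2 libraries were kept, TMM factors were used, 1 mean was fitted per group of genotype and region (12 groups, 28 libraries, 16 residual degrees of freedom), and glmLRT p-values were adjusted by Benjamini-Hochberg over 14979 genes, with calls at 0.05. CPM values include the TMM factor, log2 CPM used a prior count of 2, and 95% intervals use the normal quantile of the SE. RPKM divides CPM by exon length. Region comparisons weight the 3 genotypes equally. Replicates are the libraries that the labels list separately; their p-values measure the spread between these libraries. No pair of libraries of a group agreed within sampling noise. Alternatives were DESeq2 1.42.0 size factors and Wald test, library size alone, no filter, the quasi-likelihood test, the number in the library name as a block, a choroid plexus covariate, fewer regions in the fit and leaving out each library; a mean over Het and KO only was added after seeing the data. The members and lists were chosen with earlier results of these data known. Genes named beyond the members were at most 6 past the threshold per comparison by smallest p, plus 6 fixed genes. On simulated data for KO minus WT in dorsal striatum, 1, 23, 36 and 36 of 50 genes changed by 0.5, 1, 1.5 and 2 on the log2 scale were recovered (14805 genes). For dorsal minus ventral striatum, 32, 40, 43 and 46 of 50 were recovered (14798 genes). Genes called without a set change numbered 16 in the first simulation and 17 in the second.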

Additional observations from a re-analysis of the deposited data

Results flagged for a closer look

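Among 40 combinations of member and region, 2 held a library that stood apart from the rest of its region by Dixon's test, where chance flags about 5%. Both concerned *Itm2a*. In motor cortex, Het 6 was the highest of 5 libraries at 25.2 CPM, against 21.6 in the next. In hypothalamus, Het 4 was the lowest of 8 libraries at 17.8 CPM, against 22.1 in the next.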

How the results depend on the processing

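Scaling by library size alone changed most. The number of members past the threshold then went from 3 higher to 1 lower (*Itm2a*, −0.29) for dorsal against ventral striatum, from 4 higher to 3 lower for dorsal striatum against hypothalamus, 1 to 0 for dorsal striatum against motor cortex, 1 to 5 for ventral striatum against hypothalamus and 0 to 2 for motor cortex against hypothalamus, and the dorsal striatum minus hypothalamus values became −0.15 for *Flt1*, −0.16 for *Abcb1a*, −0.0076 for *Ly6c1* and −0.0013 for *Slco1a4*. That scaling shifted the median of all genes by itself, to −0.17, −0.41, −0.09, −0.24 and −0.28 in these comparisons in that order, moved the share of calls over all genes that were higher from 45.4% to 19.3% for dorsal striatum against hypothalamus, 50.3% to 25.1% for dorsal against ventral striatum, 49.4% to 34.9% for dorsal striatum against motor cortex, 45.2% to 20.6% for ventral striatum against hypothalamus and 47.4% to 25.6% for motor cortex against hypothalamus, and raised KO against WT calls in dorsal striatum from 58 to 499. For dorsal striatum against motor cortex, no filter, the DESeq2 Wald test, a fit of only those regions and a mean over Het and KO only gave 0, and the replicate block gave 2. For ventral striatum against hypothalamus, no filter, the Wald test and a fit of only those regions gave 0. The cause of these changes was not tested. The other 121 counts of members equalled that of the main fit or stayed within 1.5 times of it. They include the genotype comparisons, where the count stayed at 0 and no ratio exists. Of the values followed for single genes, 81 kept their call or lack of one, 18 lost the call and 4 changed sign.

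Leaving out 1 library gave 2 to 4 members for dorsal against ventral striatum, 0 to 1 for dorsal striatum against motor cortex, 2 to 6 for dorsal striatum against hypothalamus (2 without KO dorsal striatum 7 or WT dorsal striatum 1; 1 called member, *Mfsd2a*, was lower without Het dorsal striatum 4 or KO hypothalamus 8), 0 to 1 for ventral striatum against motor cortex and against hypothalamus, 0 to 2 for motor cortex against hypothalamus (2 without KO motor cortex 8), and 0 throughout for genotype. *Cldn5* between KO and WT in dorsal striatum ran from −0.11 to 1.19. Without the WT motor cortex library no value over 3 genotypes could be fitted. The 34 pairs of libraries that share a number had correlated deviations of −0.0798 to 0.0856, none over 0.1. With so few libraries per group this cannot exclude that a number marks 1 mouse. Each number occurs within 1 genotype, and the main fit did not pair libraries. With the replicate block *Abcb1a* in dorsal striatum minus hypothalamus missed the threshold (0.19, edgeR adjusted p = 0.0642).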

Other observations

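The pericyte and smooth muscle list, whose cells wrap the endothelium, mostly held called genes in a share near that of all genes. The share was lower for dorsal and for ventral striatum against hypothalamus. Of its 11 genes, 3 were higher and 1 lower in dorsal than ventral striatum (29.0% of all genes in either direction), with a median difference of 0.35 on the log2 scale against −0.01 for all genes, and 4 were higher and 0 lower in dorsal striatum than in motor cortex (43.4%). In motor cortex against hypothalamus 1 was higher and 4 were lower (48.2%), and in ventral striatum against motor cortex 2 were higher and 2 lower (43.7%). In the other comparisons 1 of 11 passed, higher in dorsal striatum than in hypothalamus (56.1%) and lower in ventral striatum than in hypothalamus (43.6%). Between KO and WT, 0 of 11 passed the edgeR test in each of the 4 regions, with 0, 1, 0 and 2 at an unadjusted p under 0.05 in dorsal striatum, ventral striatum, motor cortex and hypothalamus.

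Between KO and WT the further endothelial lists held 0 called genes in each region. Over 3 regions, 6 of 15 surface and signalling genes had an unadjusted p under 0.05, against 1556 of all 14979, and *Cd34* was at 0.52 on the log2 scale (SE 0.15, edgeR adjusted p = 0.0707). The leptomeningeal fibroblast list (7 genes) summed to 124.7 to 149.9 CPM in KO and 44.7 to 91.0 in WT hypothalamus, to 56.2 to 113.4 and 42.6 to 48.3 in dorsal striatum, and to 40.65 to 149.5 and 37.2 to 58.2 in ventral striatum, where KO 8 was the high library. Its part in these values was not tested.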
